A study of Mus musculus with 47 samples.

Results

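The comparison described here was CIE against Ctrl mice 72h after the last vapor session, in the medial prefrontal cortex (PFC). The groups were taken from the sample titles. Each held 6 arrays of 1 mouse each, so 12 of the 47 arrays of the series entered the contrast, and the other 35 served to estimate the spread and to compare the time points. All mice were adult male C57BL/6J. CIE mice were kept in chambers whose air held 10 to 13 mg of ethanol per liter, for 16 hours of each of 4 days, then went 7 days without ethanol, and did this in 4 cycles. Before each cycle they were injected with ethanol (1.6 g/kg) to start intoxication and with pyrazole (1 mmol/kg), which blocks alcohol dehydrogenase. Ctrl mice breathed air and were injected with saline and the same dose of pyrazole, so pyrazole was common to both groups and its own effect could not be seen. Tissue was also taken at 0h, 8h and 7 days (7d), each with its own Ctrl mice. The model was forced vapor exposure of males, with whole dissected tissue on each array, so that fewer cells of a type and less RNA per cell cannot be told apart.

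Withdrawal from chronic ethanol runs from acute hyperexcitability in the first hours to a later phase marked by anxiety-like behavior and impaired executive control. The medial PFC directs behavioral inhibition and decision making, and its pyramidal neurons and interneurons are targets of ethanol through GABA-A and NMDA receptors. The question at 72h was which transcripts differed, and whether they were those that had differed at 0h and 8h or those that would differ at 7d. A further question was whether a difference was carried by probesets with clear signal.

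RNA was hybridized to an Affymetrix whole-genome mouse array, on which a transcript is read by 1 or more probesets, and values are log2 RMA levels. All 12 arrays at 72h belonged to repeat group 1, the larger of the 2 repeat groups that the titles give. Mean correlation of an array with the others of its group was 0.9926 to 0.9952 in Ctrl and 0.9909 to 0.9928 in CIE, except for CIE mouse 3 at 0.986. The level of the markers listed for cortex (Tbr1, Neurod6, Nrgn, Snap25 and Slc17a7), averaged over genes, was 11.59 to 11.74 in Ctrl and 11.51 to 11.75 in CIE, far above the level of the median probeset (6.41). Of these, Slc17a7 read 8.58 in CIE mouse 3 and 9.33 to 9.80 in all other mice. Mean level of 4 striatal markers was 7.86 to 8.59 in Ctrl, but 9.49 and 9.69 in CIE mice 29 and 33 and 7.76 to 8.08 in the remaining CIE mice. Counts of calls, and the named calls and values that changed most, are also given without those 2 mice.

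Few probesets differed between CIE and Ctrl mice at 72h, the differences were small, and most of them lay in probesets of weak signal. At an FDR-adjusted p of 0.01 or less (limma, adjusted over all 45037 probesets), 238 were called, 0.528% of those tested, of which 144 (0.32%) were higher and 94 (0.209%) lower in CIE. Probesets were called bright if their mean level over all arrays was at or above that of the median probeset (6.41), and dim otherwise. Of 22519 bright probesets 28 (0.124%) were called, 20 higher and 8 lower, and of 22518 dim probesets 210 (0.933%) were called, 124 higher and 86 lower. No called probeset reached a change of 1 on the log2 scale. The size of the change was 0.23 to 0.57 among bright calls and 0.28 to 0.87 among dim calls. An unadjusted p of 0.05 or less was found for 7.9% of bright and 20.8% of dim probesets. The calls closest to the brightness limit were Faap100 (level 6.43) and Aftph (6.44) just above it and Orc1 (6.39) and Cela3b (6.39) just below.

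These counts depended on the mice and on the fit. Leaving out 1 mouse at a time gave 125 to 285 calls, and the count fell below 238 by more than 1.5 times without CIE mice 3 (125 calls), 29 (145) or 35 (149) and without Ctrl mice 34 (129), 6 (131), 24 (142) or 44 (150). Without CIE mice 29 and 33 together 82 were called, 14 of them bright, and with the 12 arrays at 72h fitted alone 19 were called, 2 of them bright. Repeat group 1 alone gave 514 calls (78 bright) and array weights 881 (192 bright), while adjustment over bright probesets only left 13 of the 28 bright calls. Both groups were free of overlap for 939 probesets (2.08% of all), of which 217 were bright (0.964% of bright probesets). Among the 238 calls 196 showed no overlap, as did 23 of the 28 bright calls.

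**Figure D1:**
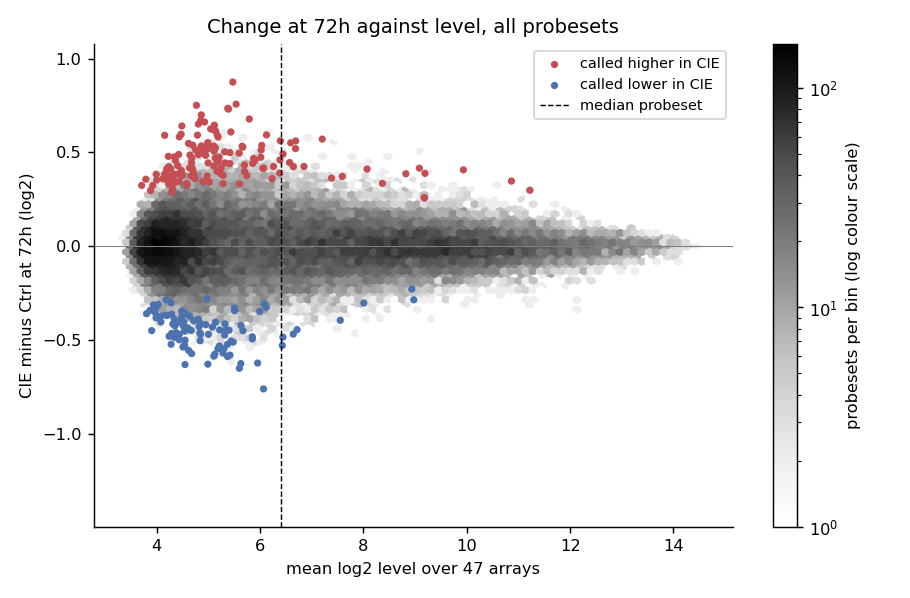
Change at 72h (CIE minus Ctrl, log2) against mean level over 47 arrays for all probesets (grey bins, darker where more probesets fall, log colour scale), with called probesets in red (144 higher) and blue (94 lower) and the median probeset as a dashed line. Most calls, 210 of 238, lie left of the line, and no call reaches a change of 1.

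Among bright called probesets covered by the naming rule, the largest rises in CIE were those of Usp24, Srgap1 and Egfr, at 1.49, 1.48 and 1.43 times the Ctrl level. Srgap1 encodes a GTPase-activating protein that acts below Robo receptors in axon guidance and cell migration. Its level was 6.26, 6.42 and 6.61 (lowest, median, highest) in the 6 Ctrl mice and 6.82, 6.98 and 7.12 in the 6 CIE mice. All CIE mice lay above all Ctrl mice, and the difference was 0.56 ± 0.09 (SE, log2; adjusted p = 0.000242). For Usp24, a ubiquitin-specific protease, Ctrl values of 6.65, 6.79 and 7.18 stood against 7.02, 7.49 and 7.62 in CIE, with 5 of 6 CIE mice above every Ctrl mouse (0.57 ± 0.11, adjusted p = 0.00197). Egfr, the epidermal growth factor receptor, had 6.10, 6.30 and 6.68 in Ctrl and 6.76, 6.88 and 6.93 in CIE (0.52 ± 0.10, adjusted p = 0.00382), again without overlap, and was called in 9 of the 12 fits that left out a mouse. Without CIE mice 29 and 33 the change was 0.59 for Srgap1 (adjusted p = 0.00191), 0.57 for Usp24 (0.0124) and 0.51 for Egfr (0.0234), so the calls of Usp24 and Egfr were lost.

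Rises of brighter probesets included those of Clint1, Lactb and Snrpf. Clint1, a clathrin adaptor of the trans-Golgi network and endosomes, rose from 10.65, 10.73 and 10.83 in Ctrl to 10.95, 11.06 and 11.25 in CIE (0.35 ± 0.06, adjusted p = 0.000435). Lactb, a filament-forming protein of the mitochondrial intermembrane space, had 8.61, 8.66 and 8.83 in Ctrl and 8.99, 9.09 and 9.17 in CIE (0.39 ± 0.06, adjusted p = 0.000424). The values of Snrpf, the Sm protein F shared by spliceosomal snRNPs, were 8.98, 9.04 and 9.16 in Ctrl and 9.22, 9.30 and 9.37 in CIE (0.26 ± 0.04, adjusted p = 0.000574). In each of these genes the 6 CIE mice lay above the 6 Ctrl mice, and the call was kept whichever mouse was left out. Klf3, a zinc finger repressor, was also free of overlap (8.77, 8.90 and 9.14 in Ctrl; 9.19, 9.37 and 9.46 in CIE; 0.42 ± 0.09, adjusted p = 0.00719), but was called in only 3 of the 12 fits that left out a mouse.

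The remaining named rises were between 0.30 and 0.45. They were 1700128F08Rik (0.45), the microtubule-associated ubiquitin ligase Mid2 (0.42), the mitochondrial ribosomal protein Mrpl35 (0.42), Armc8 of the CTLH ubiquitin ligase complex (0.41), the COPI coat subunit Copa (0.36), Nudcd2 (0.34) and the anaphase-promoting complex subunit Anapc5 (0.30). For Anapc5, 5 of 6 CIE mice lay above every Ctrl mouse, and for the others all 6 did. Named after their values were seen, the importin Kpnb1 (0.39) and the interleukin-1 receptor kinase Irak1 (0.26) rose on probesets that may cross-hybridize (suffix _x_at), and 4 probesets with no symbol listed (0.55, 0.49, 0.41 and 0.37) completed the 20 rises. Of these 6, only the one at 0.41 had a CIE mouse within the Ctrl range.

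The 8 bright falls included subunits of transport and chromatin complexes. Actr1a encodes the dynactin filament protein Arp1, which links dynein to its cargo. Its called probeset read 6.73, 6.86 and 7.15 in Ctrl and 6.16, 6.45 and 6.52 in CIE (log2 change -0.47 ± 0.07, adjusted p = 0.000199), and no mouse of one group reached the range of the other. Taf5l, a subunit of SAGA-type histone acetyltransferase complexes, had 8.07, 8.12 and 8.24 in Ctrl and 7.68, 7.87 and 7.89 in CIE (log2 change -0.30 ± 0.05, adjusted p = 0.000717). For Aftph, a clathrin-associated accessory protein, the values were 6.44, 6.57 and 6.71 in Ctrl and 5.98, 6.08 and 6.19 in CIE (log2 change -0.48 ± 0.09, adjusted p = 0.00123). These 3 were kept whichever mouse was left out, with all 6 CIE mice below all Ctrl mice.

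Faap100, of the Fanconi anemia core complex, had the largest fall among bright calls (log2 change -0.53 ± 0.10, adjusted p = 0.00199), but its Ctrl mice were widely spread (6.24, 6.68 and 7.00) and the lowest Ctrl mouse lay within the CIE range (6.01, 6.09 and 6.29). Mon1b, which with Ccz1 activates Rab7 on late endosomes, fell from 7.59, 7.76 and 7.81 to 7.02, 7.31 and 7.53 (log2 change -0.39 ± 0.08, adjusted p = 0.00604). Tmem169, a membrane protein, went from 8.96, 9.11 and 9.23 to 8.74, 8.82 and 8.94 (log2 change -0.29 ± 0.06, adjusted p = 0.0072). Both were free of overlap, but Mon1b was called in 5 and Tmem169 in 3 of the 12 fits without 1 mouse. The other 2 falls were 2900052N01Rik (log2 change -0.45) and, named after its values were seen, Sike1, a suppressor of IKK-epsilon read by a probeset of suffix _s_at (log2 change -0.23). In all, 12 of the 28 bright calls were made in each of the 12 fits that left out a mouse, and 12 of the 28 were still made without CIE mice 29 and 33. Named bright calls lost without these mice, beside Usp24 and Egfr, were Mrpl35, Klf3, Copa, Nudcd2, Anapc5, Faap100, 2900052N01Rik, Mon1b, Tmem169, Sike1, Irak1 and Kpnb1. Their adjusted p was then 0.0101 to 0.0604, all with the same sign.

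**Figure D2:**
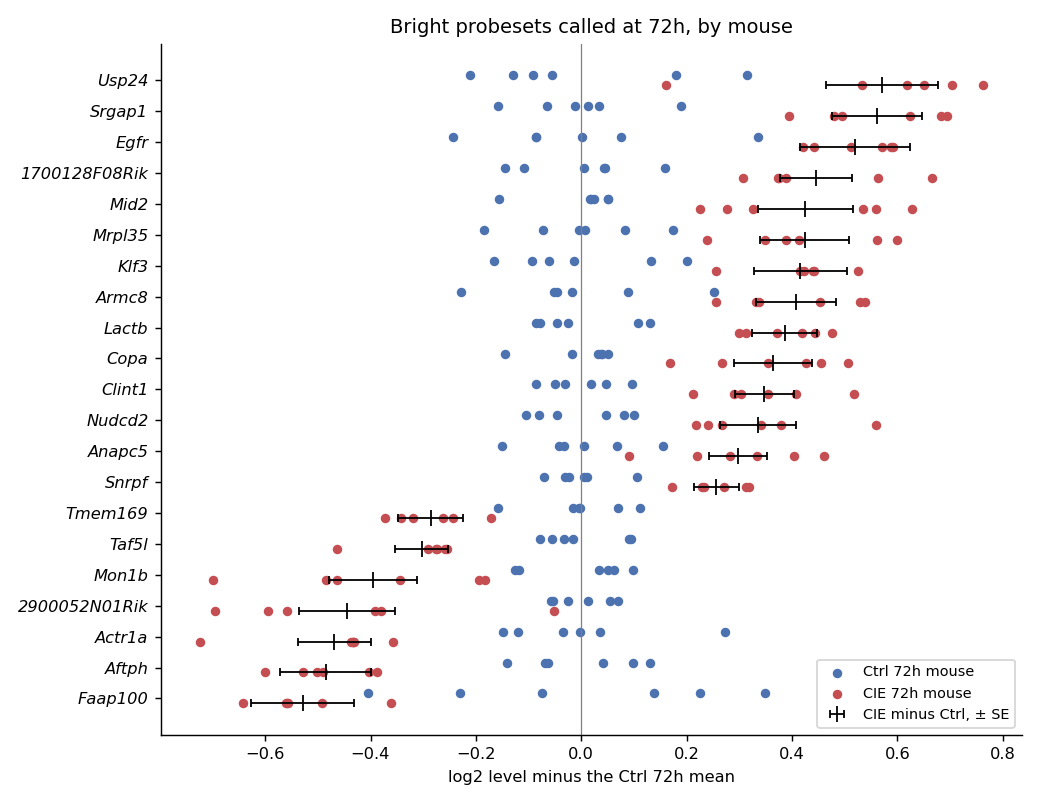
Level of each mouse minus the Ctrl 72h mean (log2) for the 21 bright called genes chosen by the naming rule. Blue points are the 6 Ctrl mice, red points the 6 CIE mice, and the black mark with its bar is CIE minus Ctrl ± SE. The groups are apart for most genes, while Usp24, Anapc5, Faap100 and 2900052N01Rik overlap by 1 mouse of a group.

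The called difference was seldom shared by other probesets of the same gene. The 24 named genes with a bright call included 19 with further probesets, 55 in all, and none of those 55 was called. Of these, 7 (12.7%) had an unadjusted p of 0.05 or less and 26 changed in the direction of the called one. In 13 genes another probeset was brighter than the called one. Actr1a changed by -0.01 ± 0.18 on its brightest probeset (level 11.12), Mrpl35 by 0.08 ± 0.06 (10.49), Copa by 0.05 ± 0.06 (11.68) and Aftph by -0.06 ± 0.06 (10.40), all on the log2 scale. The 4 other probesets of Armc8, all bright, gave -0.08 to 0.08, and those of Anapc5 gave -0.22 to 0.00. For Egfr the brightest probeset gave -0.04 ± 0.13 and a dim one -0.50 ± 0.11 (adjusted p = 0.0114, not called), opposite in sign to the called rise. Of the 7 with an unadjusted p of 0.05 or less 5 opposed the call, the others being a dim probeset of Klf3 (-0.52 ± 0.13), a dim one of Usp24 (-0.32 ± 0.12) and bright ones of Aftph (0.31 ± 0.13) and Mon1b (0.15 ± 0.07).

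Agreement was seen in few genes. Clint1 had a dim second probeset at 0.21 ± 0.09 (unadjusted p = 0.0231), and Faap100 a dim one at -0.54 ± 0.15 (unadjusted p = 0.00108, adjusted p = 0.0508), beside a bright one at -0.09 ± 0.14. Lactb, Snrpf, Taf5l, Tmem169 and 1700128F08Rik were read by 1 probeset only. Counting each gene by its brightest probeset, 82 of 18193 genes (0.451%) were called, and 11 of these were bright. Whether probesets of a gene read different transcript ends or splice forms was not tested.

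**Figure D3:**
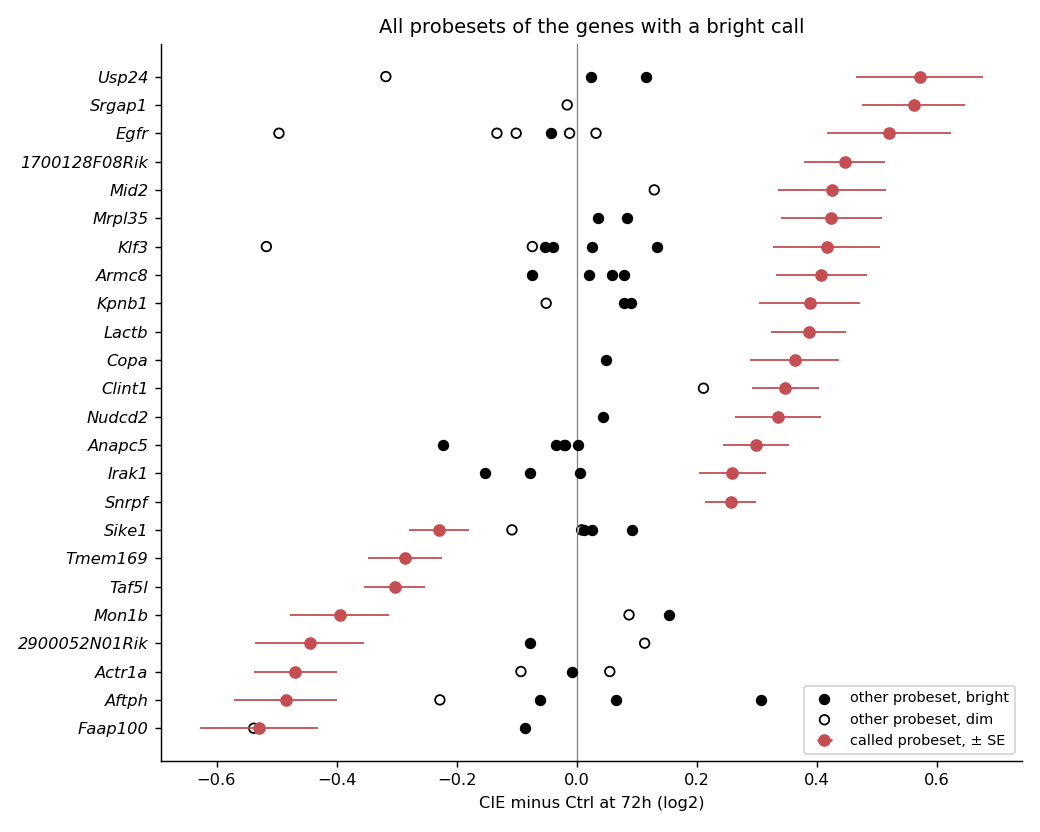
Change at 72h (CIE minus Ctrl, log2) for every probeset of the 24 named genes with a bright call. Red points with SE bars are the called probesets, black points other bright probesets and open circles other dim ones. Most other probesets lie near 0, and none of the 55 was called.

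Start sites of the single-probeset genes were read from RefSeq (GRCm38.p6), since their change rests on no choice between probesets. A promoter window of 300 bases was listed for 21 of the 24 named bright genes. Windows of Lactb (chr9:66975435-66975734, minus strand), Snrpf (chr10:93589609-93589908, minus strand), Tmem169 (chr1:72284123-72284422, plus strand) and the first listed of Taf5l (chr8:124021348-124021647, minus strand) are printed 5' to 3' on the strand of the gene, with GC boxes (GGGCGG) and CCAAT boxes on either strand in capitals.
Lactb: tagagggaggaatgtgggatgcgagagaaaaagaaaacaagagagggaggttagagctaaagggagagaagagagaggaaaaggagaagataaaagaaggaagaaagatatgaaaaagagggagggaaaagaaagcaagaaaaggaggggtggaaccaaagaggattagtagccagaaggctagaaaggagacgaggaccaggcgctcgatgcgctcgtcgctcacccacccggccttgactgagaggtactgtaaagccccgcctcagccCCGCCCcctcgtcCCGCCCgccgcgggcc
Snrpf: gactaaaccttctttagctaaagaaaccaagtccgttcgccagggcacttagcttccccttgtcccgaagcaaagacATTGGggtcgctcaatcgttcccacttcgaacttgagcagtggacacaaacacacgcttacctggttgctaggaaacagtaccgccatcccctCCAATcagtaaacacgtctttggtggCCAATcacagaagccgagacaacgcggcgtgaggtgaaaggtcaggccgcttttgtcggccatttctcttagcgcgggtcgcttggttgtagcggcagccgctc
Tmem169: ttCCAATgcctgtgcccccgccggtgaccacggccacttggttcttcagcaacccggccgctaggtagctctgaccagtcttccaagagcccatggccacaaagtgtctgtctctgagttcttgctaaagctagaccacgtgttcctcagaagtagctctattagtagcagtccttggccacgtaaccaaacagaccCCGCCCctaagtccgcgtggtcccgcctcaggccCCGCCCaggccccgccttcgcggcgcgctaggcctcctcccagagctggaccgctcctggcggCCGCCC
Taf5l: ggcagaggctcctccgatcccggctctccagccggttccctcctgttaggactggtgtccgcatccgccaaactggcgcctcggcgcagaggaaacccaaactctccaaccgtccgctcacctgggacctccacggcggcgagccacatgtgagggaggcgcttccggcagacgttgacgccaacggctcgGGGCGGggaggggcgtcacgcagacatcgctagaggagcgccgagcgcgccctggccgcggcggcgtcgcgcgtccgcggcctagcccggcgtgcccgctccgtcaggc
Lactb and Snrpf, which rose, and Tmem169 and Taf5l, which fell, thus each hold at least 1 of these motifs.

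Over the 21 genes, 17 had the GC box, against 38.2% of 27025 genes with a listed promoter and 70.2% of 8871 whose brightest probeset was bright. The CCAAT box was found in 8 of 21, against 42.8% of bright genes, and the TATA box (TATAAA) in none, against 8.4%. An E-box (CACGTG) was present in 2 genes (12% of bright genes) and the ETS motif (CCGGAAG) in 5 (19.8%). Median GC content was 60.5% in the 24 windows of called genes and 61.3% in those of bright genes. These are matches of letters on both strands and not sites of binding, and overlap of one motif with another was not removed.

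Dim calls were larger in size but harder to read. The largest rises by the naming rule were Dnal1, a dynein light chain of cilia (0.74 ± 0.12), the defensin Defb45 (0.73 ± 0.13), the phosphate transporter Slc34a2 (0.68 ± 0.13), the cholesterol exporter Abca1 (0.67 ± 0.12) and Zfp709 (0.66 ± 0.10). Abca1 had 4.28, 4.52 and 4.93 in Ctrl and 5.00, 5.29 and 5.37 in CIE, without overlap (adjusted p = 0.00122). The largest falls were the keratin-associated Krtap5-1 (log2 change -0.76 ± 0.15), Ccdc28b (-0.63 ± 0.12), Dcaf12 (-0.62 ± 0.10), the lysosomal sulfatase Sgsh (-0.59 ± 0.13) and Odf3 (-0.59 ± 0.11). Named after their values were seen, probesets that may cross-hybridize gave the largest change among all calls (Tmsb10, 0.87 ± 0.18) and the smallest p (Hamp2, 0.76 ± 0.09, adjusted p = 2.28e-06). Also named after its values were seen, Gch1, the first enzyme of tetrahydrobiopterin synthesis, fell on a probeset of suffix _s_at (log2 change -0.63 ± 0.10). Without CIE mice 29 and 33 the calls of Defb45, Abca1, Krtap5-1, Ccdc28b, Sgsh, Odf3 and Tmsb10 were lost. Their adjusted p was then 0.0126 to 0.0367.

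Signal of the dim calls was near that of genes without known use in cortex. As a reference, 126 probesets of olfactory, vomeronasal and taste receptor and keratin-associated protein genes had a median level of 4.13, and 95% of them lay below 5.99. Below that level were 196 of the 210 dim calls (93.3%) and 90.3% of all dim probesets. In the reference itself 2 probesets were called (1.59%) and 25.4% had an unadjusted p of 0.05 or less. The 210 dim calls comprised 141 with 1 gene symbol, 6 with several and 63 with none listed. For 43 of the 141 genes a bright probeset was also present. There the median size of the change was 0.07, against 0.46 on the called probeset, 18 of 43 had the same sign, 7 (16.3%) an unadjusted p of 0.05 or less, and none was called.

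Read against the other time points, the 72h calls moved in the same direction at 8h and 7d. At 0h, 3277 probesets were called (7.28%), at 8h 1527 (3.39%) and at 7d 427 (0.948%), each against its own Ctrl mice. Of the 238 calls at 72h, 71 were also called at 7d (29.8% of the 72h calls and 16.6% of the 7d calls), all with the same sign. With 8h 56 were shared (23.5% and 3.67%), again all with the same sign, and with 0h 34 (14.3% and 1.04%), of which 31 had the same sign. Called or not, the change had the same sign in 232 of 238 at 7d, 225 at 8h and 162 at 0h, against 63.4%, 61.3% and 54.5% of all probesets. Among the 28 bright calls the counts were 28, 27 and 20. At 72h alone 110 probesets were called, 6 of them bright.

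Among genes shared with 7d, Clint1 rose at 72h (0.35), at 7d (0.42 ± 0.06) and at 0h (0.32 ± 0.06), Usp24 at 7d by 0.61 ± 0.11 and Armc8 by 0.37 ± 0.08, and Actr1a, Aftph and Faap100 fell at 7d by 0.33, 0.47 and 0.56 on the log2 scale. With 8h the shared genes included Srgap1 (0.36 ± 0.09 at 8h), Egfr (0.57), Klf3 (0.49), Mid2 (0.44) and Snrpf (0.21). In order of p at 72h, the genes shared with 7d under the naming rule were Wdr31, whose change was -0.47 at 72h, -0.56 at 7d and -0.45 at 0h, Actr1a, Cklf (log2 change -0.58 at 72h, -0.50 at 7d), Gins3 (-0.53 and -0.59), Pebp4 (-0.45 and -0.34) and Dnal1 (0.74 and 0.53). With 8h they were Dlg5 (0.51 at 72h, 0.37 at 8h), Actr1a, 1700128F08Rik (0.45 and 0.31), Gins3, Srgap1 and Fam171a2 (0.58 and 0.52). With 0h they were Wdr31, Gins3, Clint1, Scfd1 (0.53 at 72h, 0.36 at 0h), Pag1, which had opposite signs, and Aftph (-0.48 and -0.33).

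The difference between effects was tested in the same limma fit. The effect at 72h differed from that at 0h for 811 probesets (1.8%), from that at 8h for 1 (0.00222%) and from that at 7d for 0 (0%). Repeat group 2, with 5 arrays, held only 8h mice, so the difference from 8h also crossed repeat groups. The 8h CIE group held 5 mice. A low count of differences does not show that 2 effects were alike. An unadjusted p of 0.05 or less was found for 2529 probesets (5.62%) between 72h and 7d and 5866 (13%) between 72h and 8h. The 7d share lay near the 0.05 that the threshold alone would give, and among bright probesets it was 2.97%. The single probeset was Plin4, of the lipid droplet coat. It had been higher by 2.54 ± 0.31 at 0h and 2.19 ± 0.32 at 8h. At 72h it read 6.31, 6.44 and 7.07 in Ctrl and 5.27, 5.46 and 7.26 in CIE (log2 change -0.56 ± 0.31, adjusted p = 0.415). CIE mice 3, 29, 33 and 35 lay below every Ctrl mouse, between 5.27 and 5.57, while CIE mice 63 and 71 read 7.26 and 7.00. The change in effect was -3.11 ± 0.43 from 0h (adjusted p = 6.83e-05) and -2.76 ± 0.44 from 8h (adjusted p = 0.00757). Leaving out 1 mouse at 72h gave 0 to 7 differences from 8h, with 0 in 10 of the 12 fits, 7 without CIE mouse 63 and 3 without CIE mouse 71.

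Of the 238 calls 55 also differed from the 0h effect, 4 of them bright, against 1.8% of all probesets. The calls were chosen by their 72h values, which also enter this difference, so a larger share was built in. Armc8 went from -0.08 at 0h to 0.41 at 72h (difference 0.49 ± 0.11, adjusted p = 0.00469), Actr1a from 0.12 to -0.47 (-0.59 ± 0.10, adjusted p = 0.000359) and Taf5l from 0.00 to -0.30 (-0.31 ± 0.07, adjusted p = 0.00838), and the fourth was the probeset without a symbol that rose by 0.55 (0.89 ± 0.15, adjusted p = 0.000318). The dim probeset of Pag1, an adaptor for Csk, had fallen at 0h by 0.34 and was higher at 72h by 0.42 (difference 0.76 ± 0.10, adjusted p = 6.83e-05). In the reverse view, the 617 bright probesets called higher at 0h, with a median change there of 0.38, had a median of 0.03 at 72h, and the 624 called lower (median -0.35) had -0.04. For the 483 bright probesets higher at 8h (median 0.45) the median at 72h was 0.10, and for the 27 higher at 7d (median 0.39) it was 0.26.

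**Figure D4:**
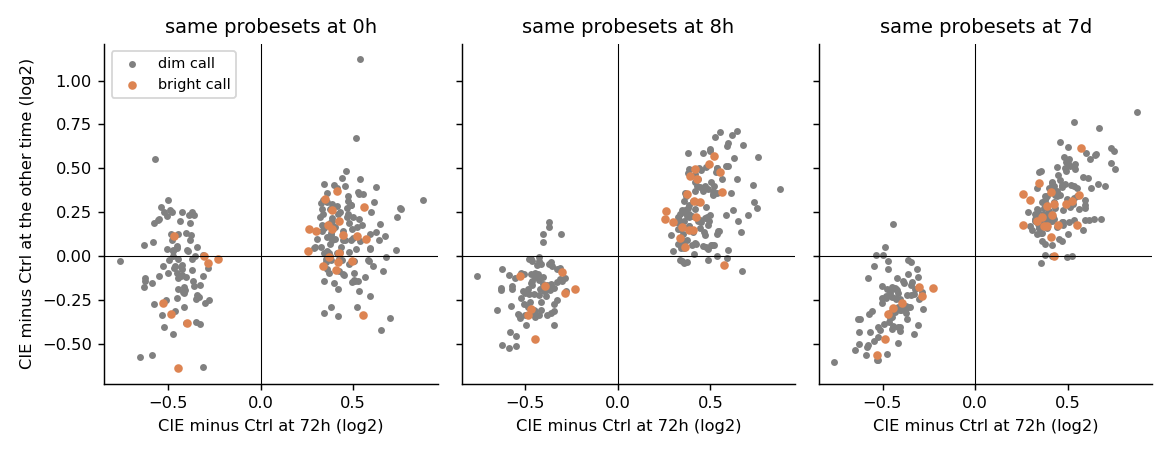
Change at 0h, 8h and 7d (vertical axes, CIE minus Ctrl, log2) of the 238 probesets called at 72h against their change at 72h (horizontal axes). Grey points are dim and orange points bright calls. Points gather in the same-sign quadrants at 8h (225 of 238) and 7d (232 of 238), and are more mixed at 0h (162 of 238).

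Gene lists of pathways and cell types held few calls at 72h, as did all genes. Over 56 lists with 1250 measured genes, 2 genes (0.16%) were called on their brightest probeset, against 0.451% of all genes and 0.101% of those read from a bright probeset, as 1011 of the 1250 were. An unadjusted p of 0.05 or less was found for 78 (6.24%), against 13% of all genes and 7.42% of bright ones. On any probeset 8 genes were called. The median change over all genes was -0.005 (48.1% higher), and list medians ran from -0.11 to 0.33. At 0h 94 of the same genes (7.52%) had been called, against 7.51% of all genes, so both shares lay near the background.

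At 0h 7.51% of all genes were called, and at 72h 0.451%. Of 32 immediate early genes none was called at 72h, 9 were higher and 23 lower, with a median of -0.10, whereas at 0h 12 had been called, 11 of them lower, with a median of -0.64. The smallest p at 72h belonged to the postsynaptic scaffold Homer1 (0.12 ± 0.07, adjusted p = 0.477) and Klf10 (-0.23 ± 0.14, adjusted p = 0.493), and Klf10 had been at -1.25 at 0h (difference 1.01 ± 0.20, adjusted p = 0.00199). Bdnf, the neurotrophin of activity-dependent plasticity, read 8.80, 9.01 and 9.30 in Ctrl and 8.80, 9.11 and 9.29 in CIE. Its change was 0.03 ± 0.18 at 72h and -1.07 at 0h, and these effects differed (1.11 ± 0.26, adjusted p = 0.00735). Fos was at -0.14 ± 0.37 against -1.48 at 0h, a difference that did not pass the threshold (adjusted p = 0.125). Of the 12 neurotrophin and receptor genes none was called, and the smallest p was that of Ret (0.55 ± 0.18, adjusted p = 0.108) and Gdnf (-0.17 ± 0.10, adjusted p = 0.446).

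Stress-hormone and unfolded-protein genes were likewise not called at 72h. Among 25 glucocorticoid-responsive genes 10 had been called at 0h (median 0.37) and 0 were at 72h (median -0.05), with Klf15 at -0.25 ± 0.13 (adjusted p = 0.378) next to Plin4. The kinase Sgk1 was at -0.08 ± 0.16 at 72h, after 0.61 at 0h and 0.86 at 8h. In the endoplasmic reticulum list (27 genes, median -0.02) Trib3 was at 0.20 ± 0.08 (adjusted p = 0.182) and the sensor kinase Eif2ak3 at -0.15 ± 0.07, below its 0h change of 0.31 (difference -0.45 ± 0.10, adjusted p = 0.00311).

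Receptors and channels of ethanol action passed the test on 1 dim probeset only. No member was called among 14 GABA-A subunits (median -0.005; Gabrg3 -0.53 ± 0.23, adjusted p = 0.246; Gabre 0.10 ± 0.07), 7 NMDA receptor genes (median 0.03; Grina -0.10 ± 0.06; Grin2c -0.17 ± 0.13) or 18 AMPA and kainate receptor genes (median -0.004; Grik5 -0.21 ± 0.10; Neto2 0.15 ± 0.08). Of 33 potassium channels 1, the G protein-gated Kcnj6, was called, on a dim probeset (0.50 ± 0.09, adjusted p = 0.00079), while its brightest probeset was at -0.30 ± 0.11 (adjusted p = 0.132) and Kcnn1 at -0.29 ± 0.13. Stress and interneuron neuropeptides (27 genes, median -0.001) included Tacr1 at -0.21 ± 0.11 and Tac1 at 0.32 ± 0.20, without a call.

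In metabolic and chromatin lists no member was called on its brightest probeset, and mean levels of the mice overlapped between the groups. In the respiratory chain 36 of 43 genes were higher, by a median of 0.03, led by Sdhd (0.17 ± 0.06, adjusted p = 0.138) and Ndufb3 (0.10 ± 0.05). Of 25 cholesterol genes 21 were lower, with a median of -0.08, led by the sterol demethylase Cyp51 (-0.16 ± 0.06, adjusted p = 0.195) and Sc5d (-0.23 ± 0.11). Histone methylation genes were lower in 28 of 33 (median -0.08, or -0.04 on the most variable probesets; Dot1l -0.19 ± 0.06, adjusted p = 0.0912; Suv39h2 -0.35 ± 0.12) and DNA methylation genes in 11 of 15 (median -0.11; Mbd1 -0.16 ± 0.08; Dnmt3b 0.24 ± 0.13). Lipid droplet and fatty acid genes had a median of -0.04 (Ppara -0.29 ± 0.11; Plin2 0.20 ± 0.10), and 46 splicing factors one of -0.02 (Tra2b 0.11 ± 0.04; Srsf2 0.16 ± 0.08). On other, dim probesets Mbd1 (0.35 ± 0.08, suffix _x_at) and the splicing factor Hnrnpl (-0.38 ± 0.07) were called. The Mbd1 call was lost without CIE mice 29 and 33 (adjusted p = 0.0864).

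The immune gene lists held no call on the brightest probeset. Outside them, S100a9 of the blood cell list and the defensin Defb45 were called on theirs. Antigen presentation genes of MHC class I (11 measured) had medians of 0.63 at 0h, 0.81 at 8h and 0.08 at 72h. Of the 11, 1 was called at 0h and 0 at 8h. At 72h H2-K1 was at 0.62 ± 0.28 (adjusted p = 0.278) and B2m at 0.31 ± 0.19. The H2-K1 probeset has suffix _x_at and may read related genes. The mean level of the 11 genes ran from 8.25 to 8.45 in CIE and from 7.81 to 8.90 in Ctrl, so the groups overlapped. The 8.90 was that of Ctrl mouse 24, with high choroid plexus signal, and the other 5 Ctrl mice read at most 8.18. H2-K1 was at most 10.75 in those 5 Ctrl mice, 11.38 in mouse 24 and at least 10.87 in CIE. B2m was at most 12.56, 13.19 and at least 12.64. Mouse 24 was set apart after its values were seen. Without it 1183 probesets were free of overlap, against 939 with all mice and 1095 to 1365 with any 1 mouse left out. H2-K1 and B2m were called in 0 of the 12 fits that left out a mouse. The part of choroid plexus in these values was not tested. Interferon response genes (37, median 0.07) were led by Irf5 (0.46 ± 0.12, adjusted p = 0.0356) and Irf9 (0.40 ± 0.16), cytokine and NF-kB genes (33, median -0.002) by Tgfb1 (0.42 ± 0.10, adjusted p = 0.0213) and Ccl2 (-0.52 ± 0.14, adjusted p = 0.0333), all dim but Irf9. Microglial identity genes (25, median 0.06) had Trem2, a lipid receptor of microglia, at -0.48 ± 0.12 (dim, adjusted p = 0.0283) and Sall1 at 0.37 ± 0.17, and the 26 myelin genes (median -0.06) had Gal3st1 at -0.24 ± 0.12 and Gjc3 at -0.52 ± 0.36. Without CIE mice 29 and 33 these became -0.45 (adjusted p = 0.0246) and -0.83 (adjusted p = 0.327).

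Of 25 genes discussed in the study for PFC, chosen on these mice, none was called on the brightest probeset at 72h. Myoz1, a calcineurin-binding protein known from muscle, read 4.05, 4.36 and 4.82 in Ctrl and 4.59, 5.09 and 5.16 in CIE on its brightest probeset, which was dim, and the groups overlapped. The difference of 0.54 ± 0.12 missed the threshold narrowly (adjusted p = 0.0128) and was 0.61 at 7d (adjusted p = 0.00326), while its other probeset gave -0.18 ± 0.08. Sgsh fell on one dim probeset, which read 5.27, 5.52 and 6.10 in Ctrl and 4.93, 5.04 and 5.26 in CIE (adjusted p = 0.00937), with changes between -0.59 and -0.52 at all time points. That call was kept in 1 of 12 fits without a mouse, and the brightest Sgsh probeset gave 0.18 ± 0.11. Bcor, a transcriptional corepressor, was at -0.02 ± 0.09 after -0.65 at 0h (difference 0.63 ± 0.12, adjusted p = 0.00169), the deacetylase Hdac2 at -0.10 ± 0.08 after -0.47, Nfkbia at -0.05 ± 0.10 after 0.51, Sgk3 at 0.00 ± 0.14 after 0.70 and Ighm at -0.30 ± 0.24 after -1.02.

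None of the remaining genes of that set was called either, and their adjusted p was 0.175 or more. On the log2 scale at 72h, the transcription factors Cebpg, Sox21 and Gata2 were at -0.14, -0.02 and 0.09, the deacetylase Hdac9 at 0.16, the phosphatase regulator Ppp2r3a at -0.19 and the receptor Notch1 at -0.14. The synaptic vesicle proteins Syn2, Syn3, Syt7 and Syt11 were at -0.06, 0.10, -0.05 and -0.05. Values for the semaphorin Sema3f, the BMP receptor Bmpr1a, the cytokines Il2 and Il4 and the chaperonin-like Mkks were 0.03, -0.004, -0.03, -0.25 and -0.04.

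Probesets of the study's PFC candidate list were a different set. The 30 had been chosen for their change at 7d in these mice and for their module connectivity, 29 of them were dim, and 10 were called at 72h, 8 higher and 2 lower, against 0.933% of dim probesets. All 30 changed in the same direction at 72h as at 7d, against 66.5% of all dim probesets. A nearer comparison for a list chosen at 7d is the 427 probesets called at 7d. Of these, 71 (16.6%) were also called at 72h, all with the same sign. The mice of the 2 time points were separate. However, the study's ANOVA filter and its connectivity drew on all time points, so the 72h arrays had a part in the choice. Named after their values were seen, Fam107b read 4.98, 5.19 and 5.29 in Ctrl and 5.47, 5.80 and 6.03 in CIE (0.61 ± 0.12, adjusted p = 0.00435), and Wdr37 read 3.67, 3.96 and 4.29 against 4.33, 4.52 and 4.53 (0.48 ± 0.10, adjusted p = 0.00576). Both were free of overlap, but bright probesets of the same genes were at -0.20 and -0.03. Tmsb10 (0.87), Scfd1 (0.53), Cdh23 (0.46) and 4930444F02Rik (0.33) also rose, and Sgsh (log2 change -0.59) and the neuromedin receptor Nmur2 (-0.57) fell, the other 2 rises being probesets without a single symbol.

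Markers of neighboring tissue varied between mice. Of 18 striatal genes 17 were higher in CIE, with a median of 0.33, the largest list median, and none was called. Drd2, the dopamine D2 receptor, read 4.35 to 5.56 in the 6 Ctrl mice, 7.17 in CIE mouse 29, 6.93 in CIE mouse 33 and 4.4 to 4.6 in the remaining 4 CIE mice. The mean over the 18 genes was 9.51 and 9.69 in these 2 mice, 8.14 to 8.23 in the other CIE mice and 8.06 to 8.79 in Ctrl. Syndig1l (-0.35 ± 0.18, adjusted p = 0.38) and Meis2 (0.24 ± 0.12, adjusted p = 0.398) had the smallest p of the list. Without both mice, 69 of the 238 calls were still made. The part of striatal tissue in the other calls was not tested.

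**Figure D5:**
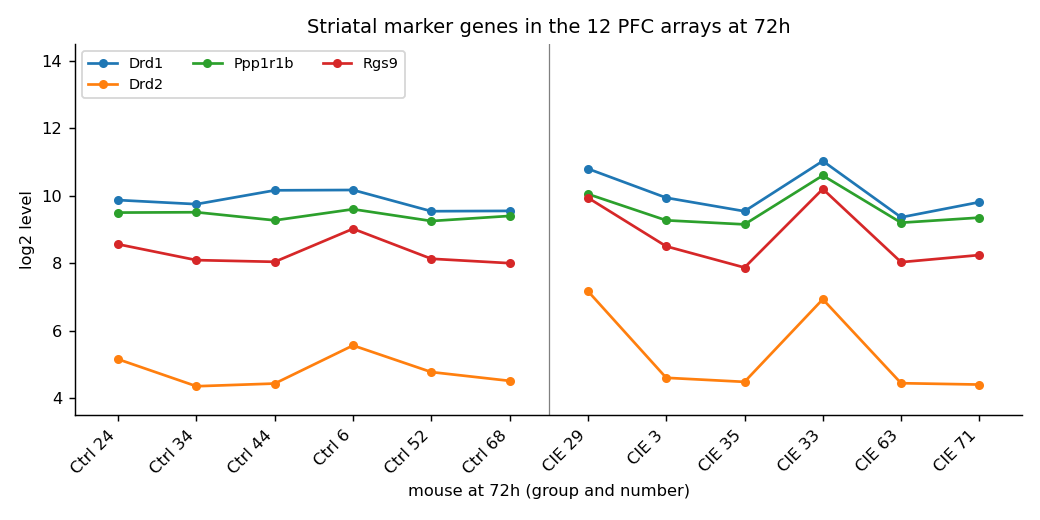
Log2 level of 4 striatal marker genes (Drd1, Drd2, Ppp1r1b, Rgs9) in each of the 12 PFC arrays at 72h, Ctrl mice left and CIE mice right of the grey line; lines only join the mice of a group. CIE mice 29 and 33 stand above all others in all 4 genes, with Drd2 at 7.17 and 6.93.

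Choroid plexus signal was high in Ctrl mouse 24, where Ttr, the transthyretin made by that tissue, read 10.53 and Kcnj13 7.56, against 6.34 to 8.59 and 4.78 to 5.31 in the other Ctrl mice. In this list F5, coagulation factor V, fell on a dim probeset from 4.53, 4.73 and 5.30 to 4.21, 4.35 and 4.40 (log2 change -0.47 ± 0.09, adjusted p = 0.00168), with all CIE below all Ctrl mice, and was called in every fit without 1 mouse. The F5 call was lost without CIE mice 29 and 33 (adjusted p = 0.0106) and with the 72h arrays fitted alone (adjusted p = 0.0535). Sostdc1, an inhibitor of BMP and Wnt signaling, also fell on a dim probeset (log2 change -0.46 ± 0.10, adjusted p = 0.00988), but was called in 1 of the 12 fits without a mouse. It was not called without CIE mice 29 and 33 (adjusted p = 0.0375). Of the blood cell genes S100a9, a calcium-binding protein of neutrophils, was called, with 4.13, 4.29 and 4.55 in Ctrl and 4.75, 4.97 and 5.05 in CIE (0.64 ± 0.11, adjusted p = 0.00109). Without CIE mice 29 and 33 the adjusted p of S100a9 was 0.0101, just past the threshold. Its partner S100a8 was at 0.25 (adjusted p = 0.464), and the red cell gene Alas2 at -0.26. The mean over the 10 measured blood genes was 4.70 to 4.85 in Ctrl and 4.79 to 4.91 in CIE, and lymphocyte markers were at 4.88 to 5.19 and 4.90 to 5.21. The part of blood cells in the S100a9 result was not tested.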

How the data were processed

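Medial PFC RNA of 47 mice was measured on Affymetrix whole-genome mouse arrays. The deposited log2 values were made by the authors with RMA and quantile normalization within each hybridization set, quantile normalization over all arrays and ComBat for the repeat group, so part of any batch difference was removed before deposit. Group names and mouse numbers come from the labels. From these values limma (3.58.1, R 4.3.3) fitted a mean for each of 8 groups, with CIE minus Ctrl at each time point and the differences of these effects as contrasts, and Benjamini-Hochberg adjustment over all 45037 probesets (called at 0.01 or less). The script was tested on simulated data. Precision is limited by how many arrays each group holds. Symbols came from the platform annotation (34945 probesets with 1 symbol, 932 with several, 9160 with none listed). A gene was read from its brightest probeset, with suffixes _x_at and _s_at last.

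Named genes were the 15 largest rises and falls among called bright probesets and the 5 largest of each among dim ones (1 symbol, no such suffix), up to 4 called members of each list described or the 2 of smallest p, up to 6 genes shared with each other time point, and the genes the study named in PFC. The members, lists and tests were chosen with earlier results of these data known. Alternatives were other subsets of arrays, array weights, variance priors, normalizations, thresholds, filters on dim probesets and each mouse left out. The fit without CIE mice 29 and 33, and the values of the 30 probesets in the study's PFC candidate table (identities only), were added after seeing the data.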

Additional observations from a re-analysis of the deposited data

Results flagged for a closer look

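Within a group of 6 mice, 18 of 266 sets of values had an extreme mouse set apart from the nearest one by a share of the whole range above Dixon's critical value, and chance gives about 1 in 20. The gap as a share of the range is given for each.

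CIE mouse 3 was the extreme mouse in 8 of the 16 gene sets. It was lowest for Actr1a (6.16, next 6.44; 0.783), Taf5l (7.68, next 7.86; 0.83), Grik5 (0.656), Gjc3 (5.45, next 7.34; 0.686), Fam171a2 (0.629), Ppp2r3a (0.685) and Syt11 (0.661) and highest for Bcor (0.692). This mouse also had the lowest mean correlation with its group, 0.986 (0.721). The Actr1a and Taf5l calls were also made without it.

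In Ctrl, mouse 68 was lowest for Mid2 (0.831), mouse 52 lowest for Copa (0.658), mouse 34 highest for Plin4 (7.07, next 6.51; 0.74) and Sgk1 (0.634), mouse 44 highest for the second Myoz1 probeset (0.725), mouse 6 highest for the probeset without a symbol that rose by 0.41 (0.638) and mouse 24 highest for the choroid plexus marker level (7.09; 0.767). CIE mouse 29 was lowest for Ighm (0.626) and highest for Kpnb1 (9.83, next 9.44; 0.778).

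The effect of ethanol at 72h differed from that at 0h, by the test of the difference in the limma fit, for 20 named probesets. Those named for a call at 72h were chosen by values that also enter this difference. The log2 change at 72h minus that at 0h was above 0 for Bdnf (1.11), Klf10 (1.01), the probeset without a symbol that rose by 0.55 (0.89), Pag1 (0.76), Zfp709 (0.75), Mbd1 on a dim probeset (0.67), Bcor (0.63), Kcnj6 on a dim probeset (0.6), Fam171a2 (0.6), Armc8 (0.49) and Dlg5 (0.47). It was below 0 for Plin4 (-3.11), Trem2 (-0.74), Gch1 (-0.69), Actr1a (-0.59), Hnrnpl on a dim probeset (-0.57), F5 (-0.51), Pebp4 (-0.51), Eif2ak3 (-0.45) and Taf5l (-0.31). Against 8h, Plin4 differed by -2.76.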

How the results depend on the processing

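Against 238 called probesets (28 bright, 210 dim), 514 (78 and 436) were called with repeat group 1 alone, 881 (192 and 689) with array weights, 954 (135 and 819) at an adjusted p of 0.05 or less, 82 (14 and 68) without CIE mice 29 and 33 together, 71 (11 and 60) with adjustment over the brightest probeset of each gene, 19 (2 and 17) with the 12 arrays at 72h alone and 13 with dim probesets left out. The difference from the 0h effect went from 811 probesets to 1256 with repeat group 1 alone, 1831 with array weights and 76 with dim probesets left out. The single difference from 8h became 0 with repeat group 1 alone and without CIE mice 29 and 33, and 113 with array weights. For 7d, 0 became 1 with array weights and 1 without both mice. Without both mice 2031 probesets had groups free of overlap, against 939. Groups of fewer mice are more easily free of overlap, and the count also rose with any 1 mouse left out. When a gene was read from its most variable probeset, 4 list genes were called instead of 2.

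With 1 mouse left out, calls numbered 125 to 285, bright calls 15 to 32, dim calls 109 to 253, differences from 0h 573 to 778, from 8h 0 to 7, from 7d 0 to 1, and probesets without overlap 1095 to 1365. Bright calls fell to 15 without Ctrl mouse 34, 16 without CIE mouse 3 or 35 and 18 without Ctrl mouse 24 or 6. Trend and robust variance priors, centring and a second quantile normalization gave 233 to 240 calls. None of the 55 named calls reversed, but 46 were lost with the 72h arrays alone and 27 without CIE mice 29 and 33. The cause was not tested, except that the fit of 12 arrays and the fits without mice rest on fewer samples. Among 68 uncalled named probesets 13 changed sign in some setting, the largest at 0.14. No paired analysis was possible because mouse numbers are not shared between groups.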
